A study of Mus musculus with 12 samples.

Results

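The genes of the interferons and of their receptors were examined in colon RNA of mice with and without colitis. By genotype label, STING was either intact or targeted for deletion in myeloid cells. The members were 9 of the 54532 genes in the deposited table, taken by gene symbol: the ligands Ifng, Ifnb1, Ifnl2 and Ifnl3, and the receptor chains Ifngr1, Ifngr2, Ifnar1, Ifnar2 and Ifnlr1. All 9 had a row, and 8 of them reached an FPKM (a read level scaled by gene length and library depth) of 0.1 in at least 3 libraries and were tested, while Ifnb1 did not. Ifnl2 passed that filter only through the untreated Tmem173iΔmye group and Ifnl3 only through scattered libraries with 1 or 2 reads, so their presence among tested genes is not a result.

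Interferons are secreted proteins that are grouped by the receptor they bind. Type I interferons, such as the product of Ifnb1, bind a receptor of the chains encoded by Ifnar1 and Ifnar2, and type III interferons, the products of Ifnl2 and Ifnl3, bind a receptor of Ifnlr1 and Il10rb, which among barrier tissues is best known in the epithelium. Interferon gamma, the only type II interferon, comes mainly from T and natural killer cells and binds a receptor of Ifngr1 and Ifngr2. The receptors signal through Janus kinases to STAT proteins, which turn on interferon-stimulated genes, and STING, a sensor of cyclic dinucleotides, is one of the routes by which DNA in the cytosol leads to Ifnb1 transcription.

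The 12 libraries came from the colons of adult mice and fell into 4 groups of 3. Tmem173fl/fl mice (labelled WT) carry a floxed Tmem173, the gene of STING, and Tmem173iΔmye mice (labelled CRE) carry in addition Lyz2-Creert2, a Cre made active by tamoxifen in myeloid cells, so that other cells keep the gene. Mice of both genotypes, C57BL/6N by the study's methods, had tamoxifen 5 times, and the labels give neither age nor sex. Colitis was induced in part of the mice of either genotype with dextran sulfate sodium (DSS) in the drinking water over 7 days, a polymer toxic to the epithelium, and untreated mice drank water.

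Before any comparison the libraries were checked. Library totals ran from 13823237 to 18718915 counts. By Xist and Y-linked counts, the libraries of replicate 3 in either untreated group and of colitic Tmem173iΔmye replicate 5 were female in pattern and the other 9 male. Tmem173, in CPM (counts scaled to a common library size), had a mean of 41.4 ± 3.30 in colitic Tmem173fl/fl libraries and of 34.2 ± 12.3 in those of colitic Tmem173iΔmye mice (SD, n = 3), which gave a log2 fold change of -0.28 (SE 0.26, edgeR adjusted p = 0.602). The single libraries were at 42.4, 44.0 and 37.65 CPM and at 47.8, 23.8 and 31.1 CPM in replicates 1, 2 and 5, and colitic Tmem173iΔmye replicate 1 was the highest of all 12 libraries, against what its label would give in the targeted cells. A loss of the targeted gene was thus not detectable in these libraries, and the genotypes are as labelled only. The part of the other cells, which keep the gene, was not tested. The paper itself reports a smaller rise of Tmem173 mRNA in inflamed colon of Tmem173iΔmye mice, and STING lost from their CD11b-positive cells. Colon epithelium markers had reads in every library. The 5 pancreas markers, each at 0 in some library, summed to between 0 and 2447 CPM in untreated libraries, to 6770, 3445 and 419 CPM in colitic Tmem173fl/fl replicates 1, 2 and 3 and to 7911, 61.6 and 0.303 CPM in colitic Tmem173iΔmye replicates 1, 2 and 5.

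Ifnl2 and Ifnl3 are near-identical genes, and their reads can be told apart only where the sequences differ. Ifnl2 (ENSMUSG00000059128) lies on GRCm38 chr7:28508836-28510455, minus strand, and Ifnl3 (ENSMUSG00000060747) on chr7:28522836-28524322, plus strand, both inside the span of Samd4b without sharing its exons. Over their 582 coding bases (GENCODE M21 transcripts) 17 bases differed, an identity of 97.1%, and the longest identical run was 166 bases. Coding bases 420 to 539 hold 9 of the differences, in capitals:
Ifnl2: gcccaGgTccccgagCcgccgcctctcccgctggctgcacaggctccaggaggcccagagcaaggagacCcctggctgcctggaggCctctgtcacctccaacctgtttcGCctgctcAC
Ifnl3: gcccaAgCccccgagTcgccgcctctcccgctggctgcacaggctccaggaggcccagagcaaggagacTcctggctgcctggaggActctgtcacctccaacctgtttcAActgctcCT
This window was picked for holding the most differences. A read that holds none of the 17 differing bases, such as a read from inside the run of 166, fits both genes. How the authors' counting treated such reads is not given in the sources used here, so the split between Ifnl2 and Ifnl3 is uncertain.

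Promoters are shown for Ifng and Ifnar2, the pair of members that were called in a comparison. These are the 250 bases before the start of each gene (RefSeq, GRCm38.p6), Ifng at chr10:118440796-118441045 and Ifnar2 at chr16:91372533-91372782, both on the plus strand, with matches to TATAAA and to TTCNNNGAA, the letters of the interferon gamma activated site that STAT dimers bind, in capitals:
Ifng: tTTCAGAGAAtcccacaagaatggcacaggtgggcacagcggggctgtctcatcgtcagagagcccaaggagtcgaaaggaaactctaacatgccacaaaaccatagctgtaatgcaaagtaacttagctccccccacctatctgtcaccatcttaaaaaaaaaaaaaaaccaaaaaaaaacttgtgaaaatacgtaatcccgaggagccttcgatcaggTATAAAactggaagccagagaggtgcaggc
Ifnar2: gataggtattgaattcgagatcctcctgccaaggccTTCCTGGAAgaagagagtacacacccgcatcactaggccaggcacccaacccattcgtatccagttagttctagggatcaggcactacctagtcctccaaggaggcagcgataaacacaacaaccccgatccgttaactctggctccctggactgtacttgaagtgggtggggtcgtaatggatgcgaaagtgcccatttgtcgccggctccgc
Both strands were searched in all 9 members' promoters. TTCNNNGAA was found in 2 of 9 (Ifng and Ifnar2), against 7.02% of 32851 promoters, and TATAAA in 2 of 9 (Ifng and Ifnb1), against 12.4%. GGGCGG, the GC box, was found in 4 of 9 (Ifnar1, Ifngr1, Ifngr2 and Ifnlr1), against 32.7%. A match is a description of letters in this window and not a bound site.

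Per length, the receptor genes stood above the ligands by group mean. In untreated Tmem173fl/fl mice Ifngr1 stood highest, at 80.0 ± 7.07 FPKM, and Ifngr2 followed at 31.3 ± 0.570 FPKM. Ifnar1 was at 10.2 ± 0.625 FPKM and Il10rb at 11.1 ± 0.381 FPKM, and their libraries nearly met, at no more than 10.6 FPKM for Ifnar1 and no less than 10.7 FPKM for Il10rb. These receptor levels were followed by Ifnlr1 at 5.95 ± 0.701 FPKM, Ifnar2 at 2.80 ± 0.243 FPKM and Ifng at 1.33 ± 0.513 FPKM (SD, n = 3 each). Ifnb1, Ifnl2 and Ifnl3 were at most 0.421 FPKM in any library. In colitic Tmem173fl/fl mice Ifnar2, at 11.7 ± 2.10 FPKM, stood above Ifnlr1, at 4.87 ± 0.706 FPKM, and level with Il10rb, at 11.7 ± 0.176 FPKM. In colitic Tmem173iΔmye mice Ifnar2, from 4.04 to 8.04 FPKM, and Ifnlr1, from 5.94 to 7.54 FPKM, overlapped.

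**Figure D1:**
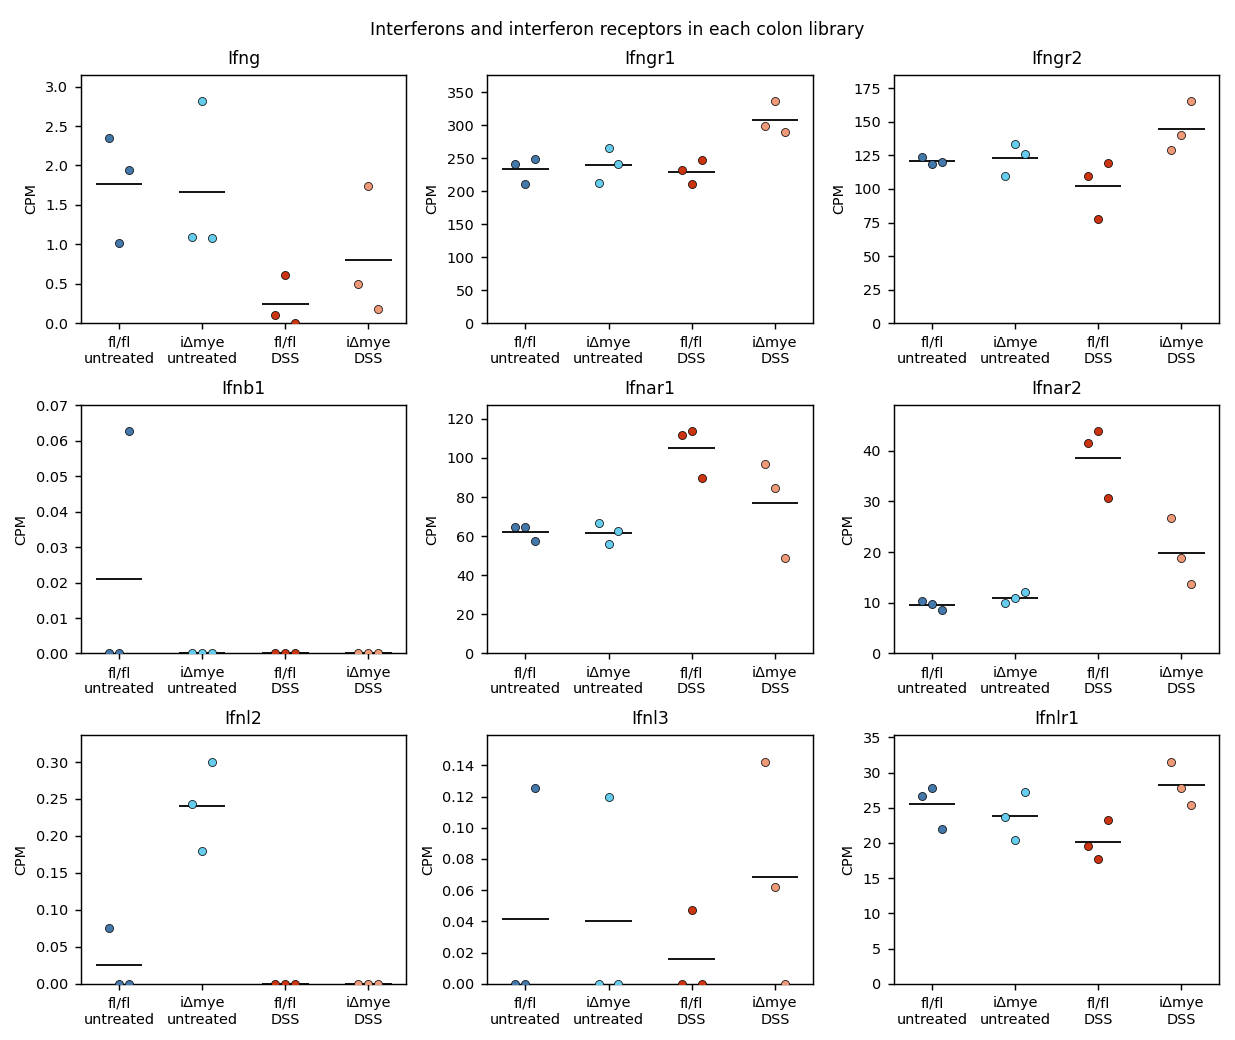
CPM (y axis, linear from 0, scaled separately per gene) of each of the 9 members in the 12 colon libraries, with 1 point per library, replicates from left to right, and a bar at each group mean (n = 3). Ifnar2 is highest in the 3 colitic Tmem173fl/fl libraries, the group mean of Ifng is lowest there, and Ifnb1, Ifnl2 and Ifnl3 rest on a few reads.

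With DSS in Tmem173fl/fl mice, Ifnar2 rose and Ifng fell. Genes were called where edgeR's quasi-likelihood test, adjusted by Benjamini-Hochberg over 24102 genes, gave p under 0.05 and the log2 fold change reached 1 or -1. Of the 8 members tested 1 was called higher, against 14.9% of all genes tested, and 1 lower, against 7.61%, while 22.5% of genes were called in either direction. Ifnar1 also rose, with an adjusted p under the threshold and a change under 2-fold.

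In the other 4 comparisons 0 of the 8 members were called by edgeR. With DSS in Tmem173iΔmye mice 2.08% of all genes were called, 1.48% higher and 0.597% lower, and, leaving Ifnl2 aside, 1 member (Ifnar2) had an unadjusted p under 0.05, as did 15.6% of all genes, with 0 members called by DESeq2. Between untreated genotypes 0% of genes were called, 0 members other than Ifnl2 had an unadjusted p under 0.05, as did 2.99% of all genes, and DESeq2 called 0 members. Between colitic genotypes 2.81% of genes were called, 0.822% higher in Tmem173iΔmye mice, and 4 members (Ifnar2, Ifngr1, Ifngr2 and Ifnlr1) had an unadjusted p under 0.05, as did 20.2% of all genes, with 0 called by DESeq2. In the interaction, which asks whether the DSS effect differed between genotypes, 2.55% of genes were called, 0.934% with a higher value, 2 members (Ifnar2 and Ifnlr1) had an unadjusted p under 0.05, as did 18.1% of all genes, and DESeq2 called 1, Ifnar2.

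**Figure D2:**
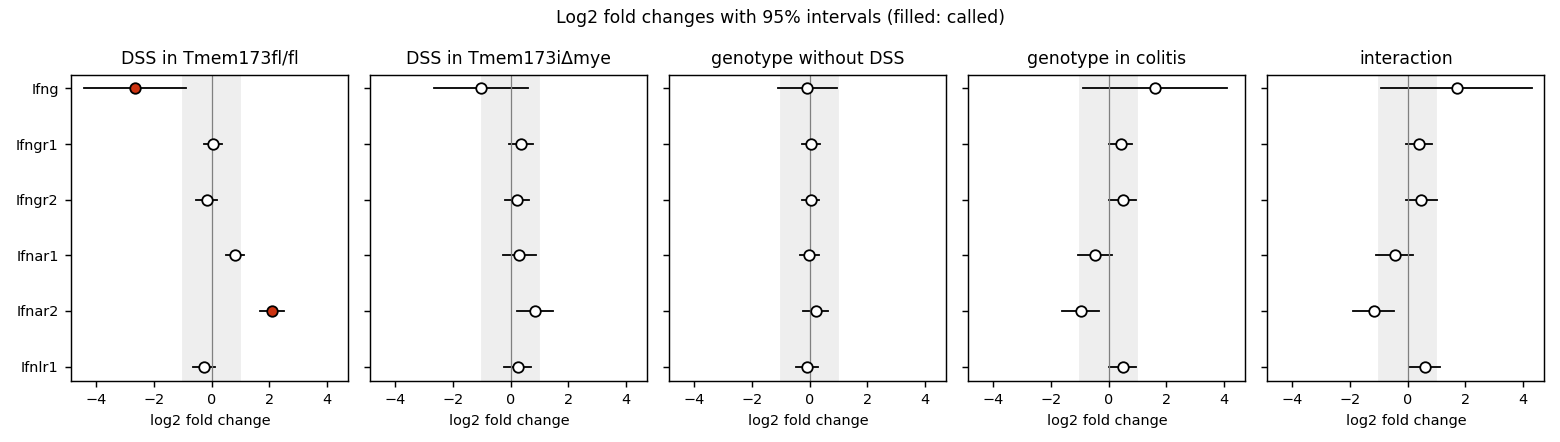
Log2 fold change (x axis) with its 95% interval for the 6 members with enough reads (y axis), in the 5 comparisons; filled points were called and the grey band spans changes under 2-fold. Ifng in DSS Tmem173fl/fl mice, at -2.65, and Ifnar2, at 2.09, are the only filled points, and the Ifng intervals are the widest in each panel.

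Ifng (ENSMUSG00000055170, GRCm38 chr10:118441046-118445892, plus strand) encodes interferon gamma. Its level was 2.35, 1.02 and 1.94 CPM in replicates 1, 2 and 3 of untreated Tmem173fl/fl mice. In colitic Tmem173fl/fl mice it was 0.108, 0.615 and 0 CPM. Every colitic library of this genotype lay below every untreated one, as for 25.4% of all genes, and the third had no Ifng read, where a floor of 3 counts applies. The log2 fold change with DSS was -2.65, its SE 0.80 and the 95% interval from -4.43 to -0.87 (edgeR adjusted p = 0.02606).

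In Tmem173iΔmye mice the Ifng levels of the groups overlapped. Untreated replicates 1, 2 and 3 were at 1.09, 2.82 and 1.08 CPM, and colitic replicates 1, 2 and 5 were at 0.499, 1.74 and 0.182 CPM. Replicate 2 of each group was the high one, and colitic replicate 2 exceeded untreated replicates 1 and 3. The DSS effect was -1.03 on the log2 scale (SE 0.74, edgeR adjusted p = 0.561), and ran from -2.27 without colitic replicate 2 (edgeR adjusted p = 0.186) to -0.43 without untreated replicate 2 (edgeR adjusted p = 0.881). Without DSS the genotypes differed by -0.08 with a 95% interval from -1.10 to 0.94 (edgeR adjusted p = 1). In colitis the difference was 1.61 with an interval from -0.90 to 4.11 (edgeR adjusted p = 0.452), and the interaction was 1.70 (SE 1.21, edgeR adjusted p = 0.497). With 1 library left out, the difference in colitis ran from 0.39 without colitic Tmem173iΔmye replicate 2 (edgeR adjusted p = 0.904) to 3.61 without colitic Tmem173fl/fl replicate 2 (edgeR adjusted p = 0.294), and the interaction from 0.44 to 3.62 without the same libraries. The interval in colitis holds both no difference and a several-fold one.

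The depth behind Ifng was small. The 3 libraries of a group held 77 Ifng reads in untreated Tmem173fl/fl, 83 in untreated Tmem173iΔmye, 15 in colitic Tmem173fl/fl and 38 in colitic Tmem173iΔmye mice. Over the group's total, without TMM scaling, these were 1.66, 1.62, 0.303 and 0.812 RPM (the unscaled form of CPM), with exact Poisson 95% intervals of 1.31 to 2.08, 1.29 to 2.005, 0.169 to 0.499 and 0.575 to 1.11, which cover counting error only. Of the 15 reads in the colitic Tmem173fl/fl group 13 came from replicate 2. The fall was no longer called without untreated Tmem173fl/fl replicate 1 (-2.41, edgeR adjusted p = 0.0777), without untreated replicate 3 (-2.57, edgeR adjusted p = 0.0794), without colitic replicate 1 (-2.31, edgeR adjusted p = 0.0790) and with a term for the sex pattern (-2.56, edgeR adjusted p = 0.0735). Untreated replicate 3 is the only female-pattern library of this comparison, so the fit with the sex term nearly repeats leaving it out. Without colitic replicate 2, which held most of the group's reads, the value was -4.67 (edgeR adjusted p = 0.00162). Gm49751, which shares exon bases with Ifng on the same strand, has no row in the deposited table.

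Markers of T and natural killer cells moved with Ifng in Tmem173fl/fl mice, and overlapped between untreated and colitic Tmem173iΔmye mice. Their 14 genes, from Cd3e to Prf1, had reads in every library and summed to between 168.8 and 200.8 CPM in untreated Tmem173fl/fl mice and between 106.3 and 256.1 CPM in untreated Tmem173iΔmye mice. The sum was 87.5, 130.3 and 61.1 CPM in colitic Tmem173fl/fl replicates 1, 2 and 3 and 149.7, 136.3 and 31.5 CPM in colitic Tmem173iΔmye replicates 1, 2 and 5. The library with the lowest sum, colitic Tmem173iΔmye replicate 5, was also the lowest of its group in Ifng, while replicate 1, with the highest sum of that group, had less Ifng than replicate 2. The markers' part in the result was not tested. In whole tissue, fewer cells of a type and less RNA per cell cannot be told apart.

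**Figure D3:**
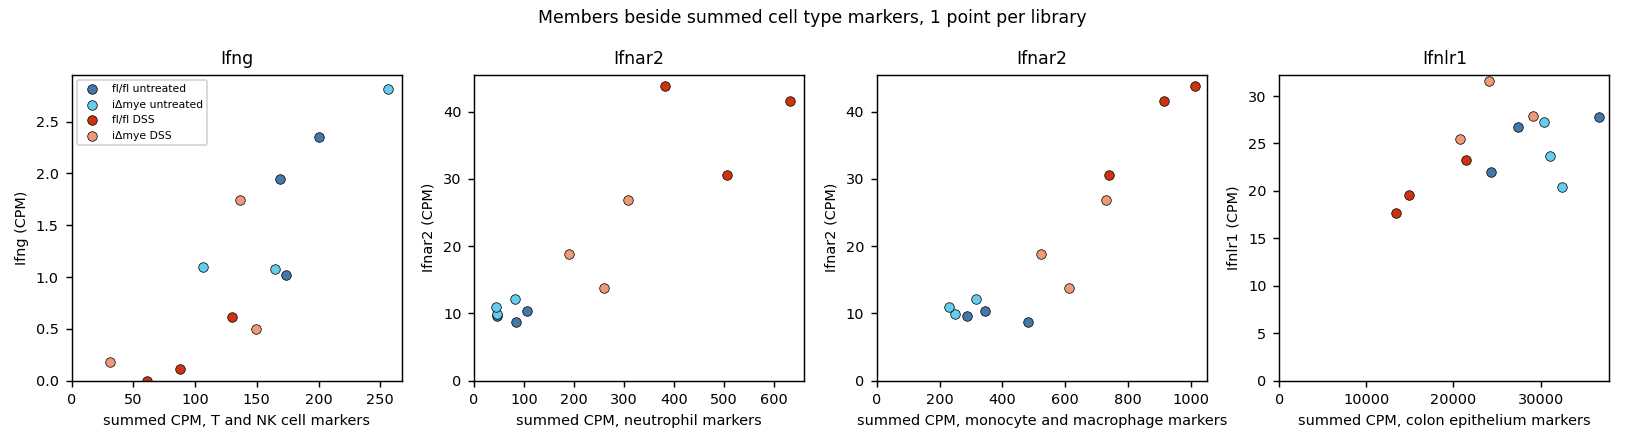
CPM of Ifng, Ifnar2 and Ifnlr1 (y axes) against the summed CPM of T and NK cell, neutrophil, monocyte and macrophage, and colon epithelium markers (x axes), with 1 point per library and colours for the 4 groups. The colitic Tmem173fl/fl libraries lie low for both Ifng and T and NK cell markers, and high for Ifnar2 and both myeloid marker sums.

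Ifnb1 (ENSMUSG00000048806, GRCm38 chr4:88522025-88522774, minus strand), the gene that STING signalling is best known to turn on, had 1 read in all 12 libraries. That read was in untreated Tmem173fl/fl replicate 3, and both colitic groups held 0 reads. A count of 0 in a group allows up to 0.0605 RPM in colitic Tmem173fl/fl and 0.0641 in colitic Tmem173iΔmye mice, with 3 counts over the group's total. Ifnb1 was thus not detectable at this depth in either colitic group, and no comparison was made.

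Ifnl2 was read mainly in the untreated Tmem173iΔmye group. It had 4, 3 and 5 reads in the 3 untreated Tmem173iΔmye libraries and 1, 0 and 0 in the untreated Tmem173fl/fl libraries. Both colitic groups had 0 reads in every library. Since the gene passed the filter through the group where it is highest, its counts are given as a description and no fold or test is drawn from them. Ifnl3 had 2, 2, 1 and 3 reads in untreated Tmem173fl/fl, untreated Tmem173iΔmye and colitic mice of these genotypes in the same order, at or under the floor in each, so no fold is given.

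The other interferon genes were read as rarely. Of 17 further type I interferon genes in the table, which include the Ifna cluster and Ifne, 15 had 0 reads in all 12 libraries. Ifnk had 16 reads in all and Ifnz had 4. Ifng was thus the only interferon gene with more than 5 reads in most untreated libraries.

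Ifnar2 (ENSMUSG00000022971, GRCm38 chr16:91372783-91405589, plus strand) encodes the chain of the type I receptor that binds the ligand with high affinity. Its level was 10.4, 9.68 and 8.64 CPM in untreated Tmem173fl/fl replicates 1, 2 and 3 and 41.6, 43.8 and 30.6 CPM in the colitic ones. No colitic library of this genotype came near an untreated one, and 23.9% of all genes were separated in this direction. With DSS it rose 4.24-fold, a log2 fold change of 2.09, its SE 0.18 and the 95% interval from 1.67 to 2.50 (edgeR adjusted p = 2.38e-05), and it was called under every alternative and with each library left out, from 1.96 to 2.21.

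In Tmem173iΔmye mice Ifnar2 was at 9.95, 10.9 and 12.2 CPM in untreated replicates 1, 2 and 3 and at 26.8, 18.8 and 13.8 CPM in colitic replicates 1, 2 and 5. The colitic libraries all lay above the untreated ones, as for 12.1% of all genes, with replicate 5 close to them. The log2 fold change was 0.84 with a 95% interval from 0.21 to 1.47 (edgeR adjusted p = 0.1825). Without colitic replicate 5 it was 1.08 and called (edgeR adjusted p = 0.0274), while without colitic replicate 1 it was 0.56 (edgeR adjusted p = 0.413) and without untreated replicate 1 it was 0.78 (edgeR adjusted p = 0.506). With the replicate number as a block it was 1.11 and also called (edgeR adjusted p = 0.0337). Untreated genotypes differed by 0.21 (SE 0.20, edgeR adjusted p = 1). With 1 library left out this ran from 0.13 without untreated Tmem173iΔmye replicate 3 to 0.28 without replicate 1.

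Between colitic genotypes the 3 Tmem173iΔmye libraries were all lower in Ifnar2 than the 3 Tmem173fl/fl libraries, a separation in this direction that 14.8% of all genes showed. The log2 fold change was -0.97, its SE 0.28 and the 95% interval from -1.60 to -0.34 (edgeR adjusted p = 0.0987), and it was -1.27 and called without colitic Tmem173iΔmye replicate 1 (edgeR adjusted p = 0.0313). The adjusted p was 0.0257 with DESeq2 (-0.94) and 0.0193 in 1 edgeR fit of all 12 libraries (-0.97), both under the fold threshold. It was -0.77 without colitic Tmem173iΔmye replicate 5 (edgeR adjusted p = 0.156) and with a term for the sex pattern (edgeR adjusted p = 0.158), and -0.86 without colitic Tmem173fl/fl replicate 2 (edgeR adjusted p = 0.2925). Colitic Tmem173iΔmye replicate 5 is the only female-pattern library of this comparison, so the sex term nearly repeats leaving it out. The interaction of Ifnar2 was -1.17 with a 95% interval from -1.89 to -0.46 (edgeR adjusted p = 0.0782). It was called by DESeq2 (-1.21, adjusted p = 0.0169), with no filter on low genes (-1.23, edgeR adjusted p = 0.0352) and without colitic Tmem173iΔmye replicate 1 (-1.45, edgeR adjusted p = 0.0098), and it was -0.99 without colitic Tmem173iΔmye replicate 5 (edgeR adjusted p = 0.102). The comparisons share the colitic Tmem173fl/fl libraries and are not independent. Gm21970, which shares exon bases with Ifnar2 on the same strand, had 0 reads.

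Ifnar1 (ENSMUSG00000022967, GRCm38 chr16:91485238-91507441, plus strand), the signalling partner of Ifnar2, was at 64.8, 64.7 and 57.7 CPM in untreated Tmem173fl/fl mice and at 111.6, 113.6 and 89.7 CPM in colitic ones. These groups did not overlap, as for 23.9% of all genes, and the rise was 1.77-fold (log2 fold change 0.82, 95% interval 0.51 to 1.13, edgeR adjusted p = 0.0012). In Tmem173iΔmye mice it was at 66.9, 56.2 and 62.4 CPM without DSS and at 97.1, 84.6 and 48.7 CPM with it. Colitic replicate 5, the female-pattern library, lay below every untreated one, and the DSS effect was 0.31 (SE 0.25, edgeR adjusted p = 0.611) and ran from 0.11 without colitic replicate 1 (edgeR adjusted p = 0.904) to 0.58 without replicate 5 (edgeR adjusted p = 0.0901). Between colitic genotypes the log2 fold change was -0.46 with an interval from -1.05 to 0.13 (edgeR adjusted p = 0.360), and it ran from -0.68 without colitic Tmem173iΔmye replicate 1 (edgeR adjusted p = 0.152) to -0.22 without replicate 5 (edgeR adjusted p = 0.560).

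The RNA levels of the type I receptor genes stood in another ratio in colitis, which follows from the changes of both genes given above. Per length, Ifnar1 over Ifnar2 was 3.50, 3.74 and 3.74 in untreated Tmem173fl/fl mice and 3.77, 2.89 and 2.87 in untreated Tmem173iΔmye mice. In colitis it was 1.51, 1.45 and 1.65 in Tmem173fl/fl and 2.03, 2.52 and 1.98 in Tmem173iΔmye mice. The ratios of colitic Tmem173fl/fl mice lay below those of every other library. The other receptors gave smaller shifts with DSS. Ifngr1 over Ifngr2 was from 2.34 to 2.73 in untreated and from 2.74 to 3.59 in colitic Tmem173fl/fl mice, ranges that nearly touched, and Il10rb over Ifnlr1 was from 1.73 to 2.17 and from 2.10 to 2.78, which overlapped.

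**Figure D4:**
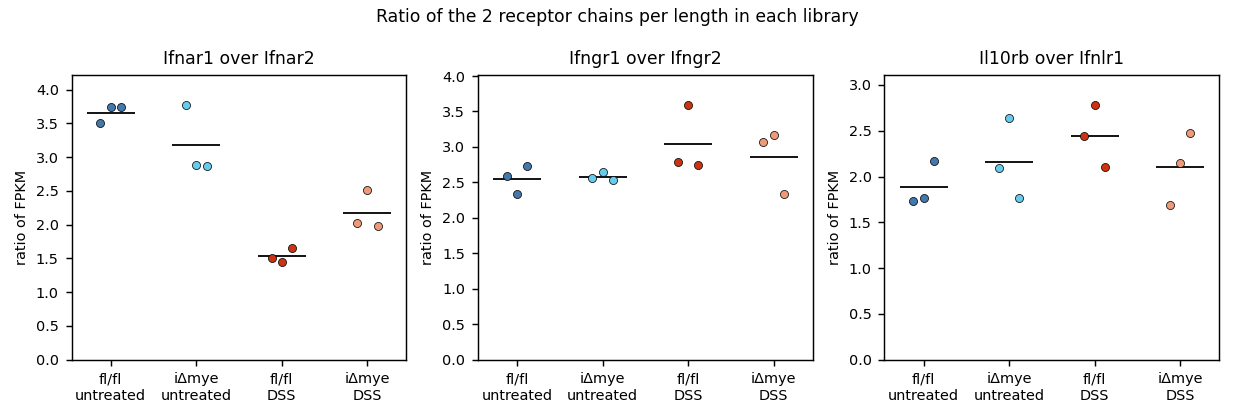
Ratio of the FPKM of both chains of each interferon receptor (y axis, linear from 0) in the 12 libraries, with 1 point per library and a bar at each group mean (n = 3). Ifnar1 over Ifnar2 falls from 3.66 ± 0.138 in untreated to 1.53 ± 0.0989 in colitic Tmem173fl/fl mice and is 2.18 ± 0.299 in colitic Tmem173iΔmye mice (SD).

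Markers of myeloid cells, in which type I receptor genes are also expressed, moved with Ifnar2. The 8 monocyte and macrophage markers had reads in every library and summed to between 288 and 481 CPM in untreated and between 738 and 1011 CPM in colitic Tmem173fl/fl mice, and to between 231 and 315 CPM and between 524 and 728 CPM in Tmem173iΔmye mice. Of the 6 neutrophil markers S100a8 and Cxcr2 were at 0 in some library, and the sum was between 46.3 and 105.5 CPM in untreated and between 381 and 631 CPM in colitic Tmem173fl/fl mice. In Tmem173iΔmye mice it was between 44.7 and 81.3 CPM and between 190 and 307 CPM. Fibroblast marker sums moved the same way, to between 7970 and 10150 CPM in colitic Tmem173fl/fl and between 2298 and 3368 CPM in colitic Tmem173iΔmye mice, from at most 1455 CPM without DSS. The 5 endothelial markers had reads in every library and summed to between 90.7 and 104.5 CPM in untreated and between 397.9 and 546.0 CPM in colitic Tmem173fl/fl mice, and to between 100.6 and 114.6 CPM and between 150.7 and 301.1 CPM in Tmem173iΔmye mice. Within the colitic Tmem173iΔmye group the pancreas marker sums, 7911, 61.6 and 0.303 CPM in replicates 1, 2 and 5, had the same order as Ifnar2 and Ifnar1. So did the endothelial sums (301.1, 197.3 and 150.7 CPM) and those of T and NK cells (149.7, 136.3 and 31.5 CPM). The monocyte and macrophage, neutrophil and fibroblast sums did not. Replicate 1 is the library without which the genotype difference and the interaction of Ifnar2 were called. In the colitic Tmem173fl/fl group the orders of Ifnar2 and of the pancreas sums differed, and replicate 3 was lowest in both. The endothelial, T and NK cell, and monocyte and macrophage sums had the order of Ifnar2 there. The part of all these cells in the Ifnar2 and Ifnar1 results was not tested.

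Ifngr1 (ENSMUSG00000020009, GRCm38 chr10:19591949-19610229, plus strand), the ligand-binding chain for interferon gamma, was at 241.7, 210.5 and 248.3 CPM in untreated and 231.7, 211.0 and 247.0 CPM in colitic Tmem173fl/fl mice. The groups overlapped throughout, and the log2 fold change was 0.05 with a 95% interval from -0.28 to 0.37 (edgeR adjusted p = 0.835). It was at 212.7, 265.6 and 241.1 CPM in untreated and 299.6, 336.7 and 290.5 CPM in colitic Tmem173iΔmye mice. Colitic Tmem173iΔmye libraries stood above those of all other groups. Of all genes, 12% were higher without overlap against colitic Tmem173fl/fl and 12.1% against untreated Tmem173iΔmye libraries. No share was computed for all groups together. The DSS effect in this genotype was 0.36 (SE 0.19, edgeR adjusted p = 0.407), and colitic genotypes differed by 0.42 with an interval from 0.02 to 0.81 (edgeR adjusted p = 0.229).

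Ifngr2 (ENSMUSG00000022965, GRCm38 chr16:91547072-91565623, plus strand), the chain that adds JAK2 to the interferon gamma receptor, was at 123.5, 118.8 and 120.4 CPM in untreated and 109.8, 77.8 and 119.2 CPM in colitic Tmem173fl/fl mice. In Tmem173iΔmye mice it was at 109.8, 133.1 and 126.2 CPM without DSS and 129.0, 140.3 and 165.3 CPM with it. The colitic genotypes did not overlap, with Tmem173iΔmye higher, as for 12% of all genes. The difference was 0.50 with a 95% interval from 0.03 to 0.96 (edgeR adjusted p = 0.227). The DSS effects were -0.17 in Tmem173fl/fl (edgeR adjusted p = 0.457) and 0.23 in Tmem173iΔmye mice (edgeR adjusted p = 0.611). With 1 library left out the former ran from -0.32 without colitic Tmem173fl/fl replicate 3 to -0.030 without replicate 2, and the latter from 0.16 without colitic Tmem173iΔmye replicate 5 to 0.31 without replicate 1.

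Ifnlr1 (ENSMUSG00000062157, GRCm38 chr4:135686287-135708181, plus strand) encodes the chain particular to the type III receptor. It was at 26.7, 27.8 and 22.0 CPM in untreated and 19.6, 17.7 and 23.2 CPM in colitic Tmem173fl/fl mice. It was at 23.7, 20.4 and 27.3 CPM in untreated and 31.6, 27.9 and 25.4 CPM in colitic Tmem173iΔmye mice. Each DSS comparison overlapped, with log2 fold changes of -0.27 in Tmem173fl/fl (edgeR adjusted p = 0.245) and 0.25 in Tmem173iΔmye mice (edgeR adjusted p = 0.630). With 1 library left out these ran from -0.41 to -0.21, without colitic Tmem173fl/fl replicate 3 and 2, and from 0.15 to 0.38, without untreated Tmem173iΔmye replicate 2 and 3. The colitic genotypes did not overlap, as for 12% of all genes, with a difference of 0.48 and an SE of 0.20 (edgeR adjusted p = 0.225), and the interaction was 0.59 (SE 0.25, edgeR adjusted p = 0.236).

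Epithelial marker sums, like Ifngr1, Ifngr2 and Ifnlr1, were for the most part higher in Tmem173iΔmye than in Tmem173fl/fl libraries of colitic mice. The 13 markers, which had reads in every library, summed to between 24270 and 36740 CPM in untreated and between 13370 and 21470 CPM in colitic Tmem173fl/fl mice. The sum was between 30360 and 32420 CPM in untreated and between 20760 and 29160 CPM in colitic Tmem173iΔmye mice, so the colitic genotypes overlapped in it by 1 library each. Its part in the receptor values was not tested. Il10rb, the chain that the type III receptor shares with those of interleukin 10 relatives and whose gene lies between Ifnar2 and Ifnar1 on chromosome 16, stayed between 42.0 and 57.5 CPM in all 12 libraries and was not called in any comparison, with a DSS effect of 0.09 in Tmem173fl/fl mice (edgeR adjusted p = 0.591).

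The signal transducers below the receptors fell with DSS in Tmem173fl/fl mice in part. Of 5 genes 0 were called higher and 2 lower, against 14.9% and 7.61% of all genes, with a median log2 fold change of -0.25 against 0.03 over all genes tested. Stat2 fell by 2.04 on the log2 scale (SE 0.33, edgeR adjusted p = 0.000929) and Irf9 by 1.18 (SE 0.23, edgeR adjusted p = 0.00281). Both encode subunits of the transcription factor of type I and III interferon signalling. The kinases were not called, with Jak1 at 0.37 (edgeR adjusted p = 0.0596), Jak2 at -0.25 (edgeR adjusted p = 0.212) and Tyk2 at -0.22 (edgeR adjusted p = 0.264). Without untreated Tmem173fl/fl replicate 1 Irf9 fell under the fold threshold, at -0.99.

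In Tmem173iΔmye mice 0 of the 5 signal transducers were called for DSS, near the 2.08% of all genes, with a median of -0.08. Stat2, the gene with the lowest p, was at -0.95 (edgeR adjusted p = 0.0494). Between untreated genotypes 0 were called, as were 0% of all genes, and Stat2 was at -0.36 (edgeR adjusted p = 1). Between colitic genotypes 0 were called, near the 2.81% of all genes, with a median of 0.45, and Irf9 was at 0.79 (edgeR adjusted p = 0.0930). In the interaction 0 were called, near the 2.55% of all genes, and Stat2 was at 1.17 (edgeR adjusted p = 0.156).

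Of 6 negative regulators of the pathway, 1 rose and 1 fell with DSS in each genotype, against 14.9% called higher and 7.61% lower of all genes in Tmem173fl/fl and 1.48% and 0.597% in Tmem173iΔmye mice. In Tmem173fl/fl mice the share that rose was near that of all genes. Socs3, an inhibitor of Janus kinases that STAT3 signalling turns on, rose by 4.13 on the log2 scale in Tmem173fl/fl mice (SE 0.20, edgeR adjusted p = 9.27e-07) and by 2.55 in Tmem173iΔmye mice (SE 0.41, edgeR adjusted p = 0.0145). Usp18, which is itself interferon-induced and acts at Ifnar2, fell by 2.64 (SE 0.58, edgeR adjusted p = 0.00561) and by 1.35 (SE 0.30, edgeR adjusted p = 0.0456). The calls in Tmem173iΔmye mice were lost for Socs3 without any 1 of the 3 untreated libraries (edgeR adjusted p from 0.112 to 0.128) and for Usp18 without any 1 of those or colitic replicate 1 (edgeR adjusted p from 0.147 to 0.2295). Between genotypes 0 of the 6 were called, near the 2.81% of all genes in colitis and the 0% without DSS. Socs3 was at -1.24 in colitis (edgeR adjusted p = 0.1485) and 0.28 without DSS (edgeR adjusted p = 1). In the interaction 0 were called, near the 2.55% of all genes, and Socs3 was at -1.50 (edgeR adjusted p = 0.126).

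Of 15 genes that lead to type I and III interferon transcription, 3 rose (Irf5, Tlr7 and Tmem173) and 5 fell (Ddx58, Ifih1, Irf7, Mb21d1 and Tlr3) with DSS in Tmem173fl/fl mice, against 14.9% and 7.61% of all genes, so that the number that rose was near the share of all genes. Ifih1, a sensor of double-stranded RNA, fell by 1.84 (SE 0.16, edgeR adjusted p = 2.34e-05). In Tmem173iΔmye mice 1 fell, against 0.597% of all genes: Irf7, a transcription factor that is also a target, by 1.56 (edgeR adjusted p = 0.0110), and the call was lost without any 1 of the untreated libraries (edgeR adjusted p from 0.05275 to 0.0971). Between colitic genotypes 1 was higher in Tmem173iΔmye mice, against 0.822% of all genes: Ifih1, by 1.24 (SE 0.22, edgeR adjusted p = 0.0294), and the call was lost without any 1 of the 3 colitic Tmem173fl/fl libraries or colitic Tmem173iΔmye replicate 2 (edgeR adjusted p from 0.0625 to 0.1485). Without DSS 0 were called, as were 0% of all genes, and Ddx58 was at -0.39 (edgeR adjusted p = 1). In the interaction 2 were called with a higher value, against 0.934% of all genes: Ifih1 at 1.39 (SE 0.29, edgeR adjusted p = 0.0237) and Tlr3, an endosomal sensor of double-stranded RNA, at 1.23 (SE 0.30, edgeR adjusted p = 0.0479). That count was 2 without colitic Tmem173iΔmye replicate 1 or 5 and 0 or 1 without any other library, with 0 without untreated Tmem173fl/fl replicate 1, untreated Tmem173iΔmye replicate 1 or 3, colitic Tmem173fl/fl replicate 1 or colitic Tmem173iΔmye replicate 2.

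Of 11 genes that promote Ifng transcription in T and natural killer cells, 1 rose and 1 fell with DSS in Tmem173fl/fl mice, near the 14.9% and 7.61% of all genes. Il18rap, a chain of the interleukin 18 receptor, rose by 2.46 (SE 0.23, edgeR adjusted p = 3.24e-05), while Il12rb2, a chain of the interleukin 12 receptor, fell and lost its call without any 1 of 4 libraries: untreated Tmem173fl/fl replicate 1 or 3, or colitic Tmem173fl/fl replicate 2 or 3. It was also not called in 1 fit of all 12 libraries or with a term for the sex pattern, which nearly repeats leaving out untreated replicate 3. In Tmem173iΔmye mice 0 were called, near the 2.08% of all genes, and Il18 was at 1.66 (edgeR adjusted p = 0.0533). Between colitic genotypes Il18, a cytokine made largely by epithelium, was the 1 gene higher in Tmem173iΔmye mice, against 0.822% of all genes, by 2.004 (SE 0.41, edgeR adjusted p = 0.0423), and this call was kept only without colitic Tmem173iΔmye replicate 1 or 5 among the libraries left out, with adjusted p up to 0.136 otherwise. Without DSS 0 were called, as were 0% of all genes, and Il12a was at -1.27 (edgeR adjusted p = 1). In the interaction 1 was called, against 0.934% of all genes with a higher value: Il18 at 2.13 (SE 0.51, edgeR adjusted p = 0.0417). The count was 0 with a term for the sex pattern and without any 1 of the 3 untreated Tmem173iΔmye libraries, the 3 colitic Tmem173fl/fl libraries or untreated Tmem173fl/fl replicate 1 or 3.

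The genes that interferon gamma is known to turn on fell with DSS in Tmem173fl/fl mice. Of 14 such genes 11 were called lower, against 7.61% of all genes, and 0 higher, all 14 had a log2 fold change below 0, where 51.1% of all genes lay above 0, and the median was -1.69, against 0.03 over all genes tested. Irgm2, an immunity-related GTPase, had the lowest p and fell by 2.28 (SE 0.24, edgeR adjusted p = 7.6e-05). Leaving out 1 library gave from 9 to 13 called lower. In Tmem173iΔmye mice 0 were called, near the 0.597% of all genes called lower there, with a median of -0.40. Cxcl9, a T cell chemoattractant, was at -1.33 (edgeR adjusted p = 0.165). Between colitic genotypes 0 were called, near the 0.822% of all genes called higher there. All 14 lay above 0, as did 51.4% of all genes, with a median of 1.24, and Irgm2 was at 1.33 (edgeR adjusted p = 0.0967). Without DSS 0 were called, as were 0% of all genes, with a median of -0.23 and Ciita at -0.52 (edgeR adjusted p = 1). In the interaction 0 were called, near the 2.55% of all genes, with Psmb9 at 1.64 (edgeR adjusted p = 0.0909). All 14 lay above 0 there too, with a median of 1.56 against 0.04 over all genes tested.

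The targets of type I and III interferons also fell with DSS, with 18 of 19 called lower, against 7.61% of all genes, and a median of -2.96 in Tmem173fl/fl mice. The exception was Siglec1, a macrophage receptor, which rose by 2.39 (SE 0.24, edgeR adjusted p = 5.53e-05). Each library left out gave the same 18 lower and 1 higher as counts. In Tmem173iΔmye mice 15 were called lower, against 0.597% of all genes, with a median of -1.38, and Isg15, a ubiquitin-like protein, fell by 2.59 (SE 0.24, edgeR adjusted p = 0.000769). That count was 5, 3 and 4 without untreated replicate 1, 2 and 3, and 7 without colitic replicate 1. Between colitic genotypes 2 were called higher in Tmem173iΔmye mice, against 0.822% of all genes, with a median of 1.202, and Oas1a, an activator of RNase L, was higher by 1.51 (SE 0.23, edgeR adjusted p = 0.0191). That count was 0 without colitic Tmem173fl/fl replicate 1 or 3 or colitic Tmem173iΔmye replicate 2, 1 without replicate 5 and 11 without colitic Tmem173fl/fl replicate 2. Without DSS 0 were called, as were 0% of all genes, with a median of -0.32 and Ifi44 at -0.54 (edgeR adjusted p = 1). In the interaction 2 were called, against 0.934% of all genes with a higher value, with Oas1a at 1.66 (edgeR adjusted p = 0.0219). Of the 19 targets 18 lay above 0 there, with a median of 1.46 against 0.04 over all genes tested. The interaction count was 0 without untreated Tmem173iΔmye replicate 1 or 3 or colitic Tmem173fl/fl replicate 1. It was 6 without colitic Tmem173iΔmye replicate 1, 9 without colitic Tmem173fl/fl replicate 2, 9 with no filter, 8 with DESeq2 and 4 with the replicate block, and 1 or 2 without any other library. Irf7, Usp18 and Socs1 each stand in 2 of these lists. The lists were chosen with earlier results of these data known, so their counts beside the shares of all genes are a description and not a test.

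Markers of plasmacytoid dendritic cells, known as a source of type I interferons, moved with these targets. The 5 markers, of which Cox6a2 was at 0 in some library and Klk1, Spib and Tcf4 are also expressed by other colon cells, summed to between 677.4 and 795.9 CPM in untreated and between 414.7 and 538.2 CPM in colitic Tmem173fl/fl mice. In Tmem173iΔmye mice the sum was between 717.9 and 827.8 CPM without DSS and between 516.6 and 570.8 CPM with it. The colitic libraries of either genotype all lay below the untreated ones. Epithelial marker sums, given above, were also lower in the colitic libraries of both genotypes, and the part of these cells in the target values was not tested.

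**Figure D5:**
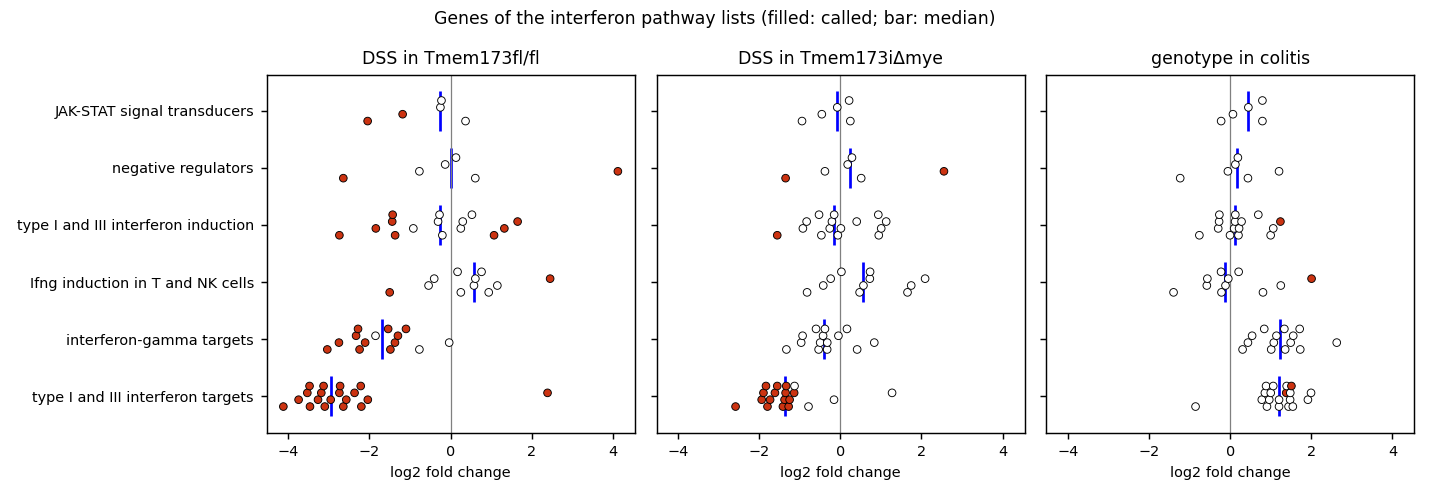
Log2 fold change (x axis) of each gene of 6 interferon pathway lists (y axis) with DSS in Tmem173fl/fl mice, with DSS in Tmem173iΔmye mice and between colitic genotypes; filled points were called and blue bars are medians. With DSS the type I and III interferon targets lie mostly left of 0, with medians of -2.96 and -1.38, and between colitic genotypes mostly right of 0, at 1.202.

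Genes whose pattern over the 12 libraries was most like that of a member were sought by the smallest root mean square difference of centred log2(CPM + 0.5) among 16169 genes. For Ifng these were Lgals9, Ifi47 and Ube2l6, at 0.322, 0.322 and 0.323, against 0.859 for the spread of Ifng itself. For Ifnar2 they were A4galt, Aatk and Jade2, at 0.122, 0.127 and 0.145, against 0.801. The nearest were Pgs1 for Ifnar1 (0.127), Arpc2 for Ifngr1 (0.109), Rac1 for Ifngr2 (0.102) and Mark2 for Ifnlr1 (0.088), against spreads of 0.386, 0.204, 0.245 and 0.231. Extl3 and Plekhm2 came next for Ifnar1, Dnajc5 and Exoc6 for Ifngr1, Ywhaz and Vps28 for Ifngr2, and Pkp3 and Cblc for Ifnlr1. By this measure, which is not scaled to a gene's own spread, Ifng stood farther from its nearest genes than any receptor did. Its own spread was also the largest, and the part of its few reads in the distance was not tested. No search was made for Ifnl2 and Ifnl3, whose reads are too few.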

How the data were processed

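RNA sequencing of colon tissue from 12 mice was analysed, with groups and replicate numbers from the sample titles. By the submitters' processing notes, reads were handled with CASAVA 1.8, fastp, HISAT2 2.0.5, featureCounts 1.5.0-p3 and DESeq2 1.20.0 on GRCm38. The libraries were made from polyA RNA. The authors deposited whole-number counts per gene and FPKM values, which they scaled by gene length and library total. How strand and multi-mapped reads were used is not given in the sources used here. The deposited columns of the authors' own comparisons (group means, fold changes, p-values and adjusted p-values) were not used.

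Counts were scaled by TMM and tested with edgeR 4.0.16 (glmQLFit and glmQLFTest) in R 4.3.3. Each fit held the libraries of its 2 groups, and that of the interaction held all 12. Tests covered 24102 genes that reached an FPKM of 0.1 in 3 or more libraries. Calls needed a p under 0.05 after Benjamini-Hochberg adjustment and a change of 1 or more on the log2 scale in either direction. The SE is the log2 fold change divided by the square root of F. The 95% intervals use the total degrees of freedom of edgeR. CPM values are TMM-scaled, and chain ratios use FPKM. The code was tested on simulated data. Library totals ran from 13823237 to 18718915 counts. Nothing says that libraries of a group came from separate cages or extractions, so p-values measure the spread between these libraries.

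The members, the pathway lists and the marker lists were chosen with earlier results of these data known. All 9 members are named, with the gene of lowest p of the 6 pathway lists in each comparison, the called genes of lists of up to 6 genes, and the 3 genes of most similar pattern per member. Other called genes of a list, such as Il12rb2 and the genes named for interferon induction, were named after their values were seen. Alternatives were other scaling, filters, DESeq2 1.42.0, 1 fit of all libraries, an adjusted p alone, a replicate block, a term for sex pattern and each library left out. Untreated Tmem173fl/fl replicate 3 is the only female-pattern library for DSS in that genotype, and colitic Tmem173iΔmye replicate 5 between colitic genotypes. In these comparisons the sex term nearly repeats leaving that library out, and is no separate adjustment for sex. All alternatives were also applied to the lists. Applying the alternatives to the lists was decided after seeing the data. 1 item of the pathway lists is not reported here.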

Additional observations from a re-analysis of the deposited data

How the results depend on the processing

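Of 420 log2 fold changes of the 6 members with enough reads under the alternatives, 397 kept their direction and side of the threshold, 4 lost a call, 6 gained one and 13 changed sign. Members called with DSS in Tmem173fl/fl mice numbered 2, or 3 with an adjusted p alone and 1 with a term for sex pattern, and from 1 to 2 with 1 library left out. With DSS in Tmem173iΔmye mice the number was 0, and from 0 to 1 with 1 library left out. Between colitic genotypes it was 0, and from 0 to 1 with 1 library left out. In the interaction it was 0, or 1 with no filter and 1 with DESeq2, and from 0 to 1 with 1 library left out. Between untreated genotypes 0 members were called under every alternative run. The causes were not tested.

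The changes of sign were all of small values. Ifngr1 with DSS in Tmem173fl/fl mice was -0.022 in 1 fit of all 12 libraries and from -0.031 to 0.10 with 1 library left out. With 1 library left out between untreated genotypes, Ifnar1 was from -0.062 to 0.062, Ifng from -0.68 to 0.17, Ifngr1 from -0.031 to 0.13, Ifngr2 from -0.025 to 0.11 and Ifnlr1 from -0.20 to 0.0092.

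Same-numbered libraries of different groups did not clearly deviate together: over 15 pairs r ran from -0.172 to 0.202, and 4 pairs were over 0.1. Of 39 pairs with other numbers 13 were over 0.1. Values this scattered cannot tell whether the numbers pair the mice. With the replicate number as a block, 1 member was called with DSS in Tmem173iΔmye mice, Ifnar2 at 1.11 (edgeR adjusted p = 0.0337), and the genes called of all tested went from 501 to 1369 there and from 0 to 94 between untreated genotypes.

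Counts over all genes moved more than 1.5 times elsewhere too. They went from 5422 to 8544 with an adjusted p alone for DSS in Tmem173fl/fl mice. For DSS in Tmem173iΔmye mice the 501 became 981 with no filter, 981 in 1 fit of all libraries and 1137 with DESeq2, and from 51 to 1469 with 1 library left out. For colitic genotypes 678 became 1220, 1492 and 1619, and from 27 to 1593. For the interaction 614 became 1228 with no filter and 1365 with DESeq2, and from 267 to 1728. Between untreated genotypes 0 became 68 with no filter and 3 with DESeq2. The few reads of Ifng, Ifnl2, Ifnl3 and Ifnb1 limit what these libraries can show of the ligands.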
